A study of Homo sapiens with 5 samples.

Results

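Short fragments of the U4, U5 and U6 small nuclear RNAs (snRNAs) were counted in 5 small RNA libraries from MCF10A, an immortalized, non-tumorigenic human breast epithelial line. The rows described here were chosen by name and by summed count: every row whose name starts RNU4, RNU5 or RNU6, joint names included, with 20 or more counts over the 5 libraries. That left 54 of the 1417 rows with such names, and of 49965 named rows in all. Of the other rows with such names, 744 held no count at all. The 54 rows were 8 of U4, 9 of U5, 31 of U6, 4 of U4atac and 2 of U6atac, and they held 22530 counts. A functional copy's name stood alone on 4 rows, all of U5, and was joined to a pseudogene's name on 4 more, while 46 rows carried pseudogene names only. Because the summed count chose the rows, their high totals are no result. Just inside the threshold stood RNU6-841P with 20 counts and RNU4-69P, RNU6-1315P and RNU6-271P with 21 each. RNU6-1077P, RNU4-83P, RNU6ATAC10P and RNU6-817P stood just outside it with 19 each.

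The study compared cells grown attached to uncoated plastic (3 libraries) with cells kept detached without attachment, over a 2% coat of the non-adhesive polymer poly-HEMA (2 libraries). Both groups were the same line, without any engineered allele, in the same medium with horse serum, epidermal growth factor, insulin, cholera toxin and hydrocortisone. The design text gives a culture of 24 h for both, whereas the sample labels give the attached cells a time of 0 h and the detached cells 24 h. Total RNA (50 µg) was cut down to molecules of 18 to 24 nucleotides before sequencing, so a count is a fragment and not a whole snRNA. No label says whether replicates were separate cultures, so the p-values reflect how these libraries vary, and that variation may be technical.

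U4, U5 and U6 form the tri-snRNP, the unit that joins the spliceosome after U1 and U2 have marked an intron. U4 pairs with U6 and holds it inactive, and U6, once released, builds the catalytic core, where its ACAGAGA box binds the start of the intron. U5 holds the exons with a conserved loop. U4atac and U6atac take the places of U4 and U6 in the minor spliceosome. U6 is transcribed by RNA polymerase III, and U4 and U5 by RNA polymerase II. The human genome carries many more pseudogenes than functional copies, above all for U6.

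The sequences below were read from GENCODE 29 transcripts (GRCh38) for rows on which the results turn: the pseudogene name of the leading U5 row, the leading U4 pseudogene beside the main U4 copy, and the leading U6 pseudogene. Capitals mark the Sm site letters AATTTTTG of U4 and the ACAGAGA box of U6. RNU5E-10P holds neither the U5 loop letters GCCTTTTAC nor the U5 Sm site letters AATTTTTTG, so it is all in lower case. RNU5E-1, the other name of that row, holds both. The Sm site is the short run of uridines that binds the Sm protein ring.
RNU5E-10P: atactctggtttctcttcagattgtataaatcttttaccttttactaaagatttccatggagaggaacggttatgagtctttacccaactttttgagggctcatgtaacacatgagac
RNU4-2: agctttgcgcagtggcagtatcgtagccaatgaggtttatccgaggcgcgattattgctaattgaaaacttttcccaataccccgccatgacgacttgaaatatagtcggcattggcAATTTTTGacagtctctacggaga
RNU4-78P: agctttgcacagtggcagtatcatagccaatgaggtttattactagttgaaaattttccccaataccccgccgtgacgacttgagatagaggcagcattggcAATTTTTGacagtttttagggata
RNU6-160P: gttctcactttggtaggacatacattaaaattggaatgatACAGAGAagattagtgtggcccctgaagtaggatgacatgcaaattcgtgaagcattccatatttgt

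All 58 names on the 54 rows matched a GENCODE transcript. The transcripts of RNU5A-1 and RNU5B-1 were 94.0% identical. RNU5E-10P lies at chr11:47576471-47576588 on the minus strand, within an intron. RNU4-2 lies at chr12:120291763-120291903 on the minus strand, in no other gene. RNU4-78P (chr3:42221840-42221965, plus strand) lies in an intron of TRAK1 in sense and was 79.4% identical to RNU4-2. RNU6-160P (chr1:153331622-153331728, plus strand) runs opposite to PGLYRP4 and was 84.1% identical to RNU6-1. Of the 58 names, 25 lay in no other annotated gene, 17 ran opposite to one, 13 lay in introns and 3 in exons.

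The U5 loop letters stood in 8 of the 10 U5 names and the U5 Sm letters in 7. Over all 31 U5-type transcripts of the annotation the share was 45.2% for each, and over all 1900 snRNA transcripts 0.737% for the loop. The U4 Sm letters stood in 4 of 10 U4 names, against 38.9% of all U4-type transcripts. The ACAGAGA box stood in 20 of the 31 U6 names, against 54.2% of all U6-type transcripts and 37.4% of all snRNA transcripts. Only the transcript strand was searched, the motifs do not overlap one another, and a match describes letters and not a working site.

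Reads as short as these can match several copies, and the copies differed widely in how much sequence is theirs alone among snRNA genes. Each transcript was split into overlapping 18-base words, and a word was called a copy's own where no other snRNA gene held it; genes of other types can still hold it. For RNU4-86P, for example, 189 of 202 words were its own in this sense but 84 stood in no other gene of any type, and for RNU5E-1 and RNU5E-6P 0 words did. Functional RNU6-1 had 90 words and 0 of them were its own: its words were shared with 712 other snRNA genes. The median word stood in 60.5 snRNA genes, RNU6-1 included. RNU6-1, RNU6-2 and RNU6-9 were identical, as were RNU6-7 and RNU6-8. RNU6ATAC likewise had 0 of 109 words to itself. In contrast, RNU4-2 had 19 of 124, RNU5A-1 28 of 99 and RNU4ATAC 60 of 110. RNU6-160P had 38 of 90 and shared 0 words with RNU6-1.

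Counts were found mainly where such words existed. Among 1381 rows with a single name, 27 had no word of their own, and 0 of these 27 held a count. The share with any count was 16.05% of 162 names with 1 to 19 own words, 38.8% of 312 names with 20 to 39, 51.6% of 411 names with 40 to 59, and 65.0% of 469 names with 60 or more. The 50 single-named rows of the chosen set had 21 to 189 own words with a median of 62.5, against a median of 40 in the 717 single-named rows with no count. Over the 1381 names Spearman's rho between own words and summed count was 0.36, and over the 50 chosen ones it was 0.11. Names from 1 family share sequence and are not independent, so these are descriptions. How the authors counted reads that match several copies is not given in the sources used here, and its part in the counts was not tested.

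**Figure D1:**
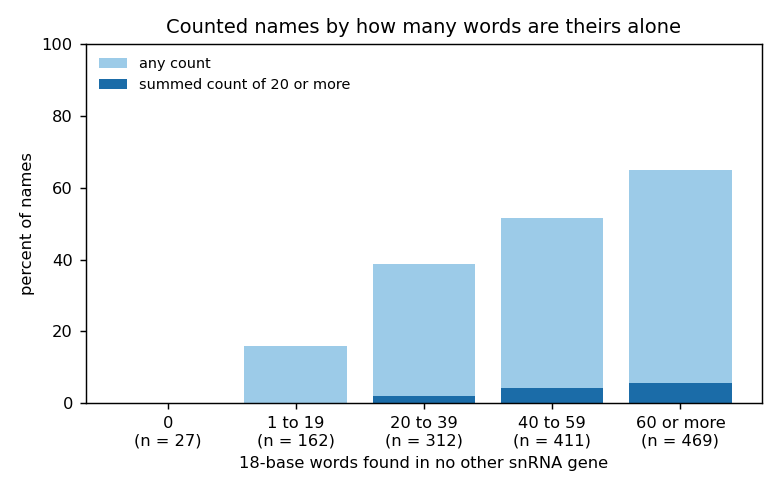
Percent of single-named U4, U5 and U6 rows with any count (light bars) and with a summed count of 20 or more (dark bars), by the number of 18-base words found in no other snRNA gene; n is the number of names. The light bars climb from 0% of 27 names with no such word to 65.0% of 469 names with 60 or more.

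The libraries held 8945953 to 16008489 named counts, of which 97.1% to 98.7% were human miRNAs, so these rows are a small part of each library. Their counts numbered 2835, 2744 and 2389 in attached libraries 1 to 3, and 3977 and 10585 in detached libraries 1 and 2. As a share of the counts outside human miRNAs they made 1.33%, 1.95% and 1.55% in the attached libraries and 1.85% and 3.33% in the detached ones. The second detached library stood apart: it exceeded the other detached library in 47 of the 54 rows, with a median ratio of 2.48. Attached library 2 also stood apart over all 1159 tested rows, with Spearman's rho of 0.79 against each of the other attached libraries, which reached 0.92 with each other. The 6 epithelial marker miRNAs fixed for the line all had counts, at a sum of 40868 to 114615 CPM (counts in every 1000000 named counts of a library), whereas the striated muscle list summed to 0 to 11.5, the neuron list to 4.05 to 9.93 and the liver marker to 0 to 0.764. The blood list summed to 11.7, 1.34 and 16.1 CPM in the attached libraries and to 18.6 and 18.1 in the detached ones. The fibroblast and smooth muscle list summed to 4.12, 11.3 and 3.63 against 56.0 and 17.2. The sums of both lists were thus higher in both detached libraries, as were the rows described below as higher without overlap. By member this held for miR-451a, miR-144-3p and miR-145-5p. The groups overlapped for miR-142-3p, miR-142-5p, miR-223-3p, miR-143-3p, miR-199a-5p and miR-214-3p. In the striated muscle list miR-133a-3p was at 0 in every library. The part of these lists, and of the libraries that stood apart, in the results below was not tested.

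Summed over its rows, U5 stood at 37.5, 70.5 and 64.4 CPM in the attached libraries and at 91.3 and 565 in the detached ones. Both detached values lay above all 3 attached values, and the ratio of the group means was 5.71. That ratio rests mostly on the second detached library: without it, the log2 ratio of U5 was 0.67 in place of 2.51, below the 0.70 of U4atac. In bulk libraries, a change in the number of cells that hold a fragment and a change in its amount per cell cannot be told apart.

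U4 stood at 24.4, 49.4 and 25.7 CPM in the attached libraries and at 26.8 and 77.4 in the detached ones. U6 stood at 146, 167 and 110 in the attached and at 99.4 and 299 in the detached libraries. For both families the first detached library lay within or below the attached range and only the second lay above it. Their ratios of means were 1.57 and 1.41, and without the second detached library the log2 ratios turned from 0.65 to -0.31 for U4 and from 0.50 to -0.50 for U6.

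U4atac stood at 18.9, 8.05 and 24.3 CPM in the attached libraries and at 27.8 and 29.5 in the detached ones. The detached libraries lay above the attached range, with a ratio of means of 1.67. Without the row RNU4ATAC8P, which differs widely between the detached libraries, U4atac stood at 16.1, 8.05 and 17.2 against 14.99 and 29.3, and the groups overlapped. U6atac was scarce, at 1.94, 11.6 and 3.91 against 3.06 and 4.15, and the groups overlapped. Leaving out attached library 2, which was the highest, turned its log2 ratio from -0.69 to 0.30. The sums are taken over chosen rows and carry no test. They use library totals, whereas the fits below use TMM scaling factors. That factor was 1.32 for the second detached library and 0.86 to 1.04 for the others, so TMM scaling lowers the levels of that library.

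**Figure D2:**
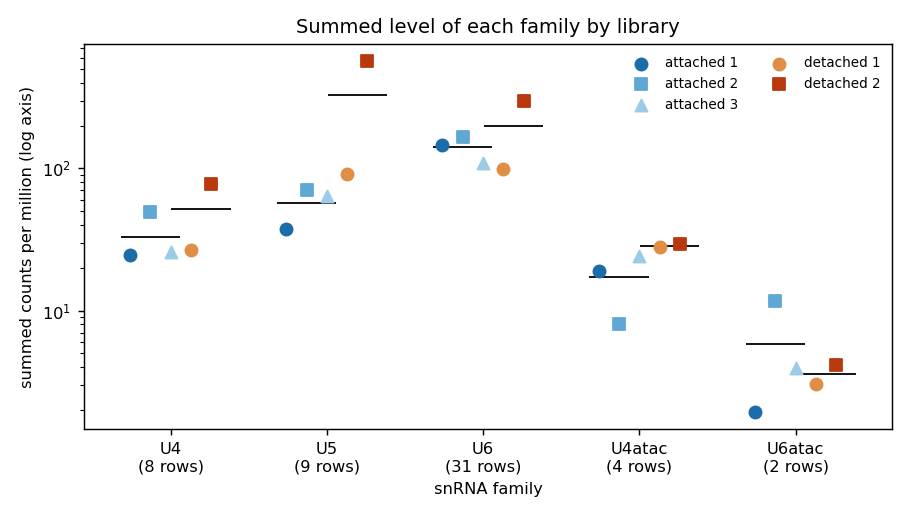
Summed CPM (log axis) of the chosen rows of each snRNA family, 1 point per library, with a line at each group's mean. The second detached library is the highest for U4, U5, U6 and U4atac, and U5 reaches 565 CPM there.

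The make-up of the rows differed as well. Pseudogene names held 94.2% of the U4 counts, 94.7% of the U4atac counts and 100% of the U6 and U6atac counts, but 8.52% of the U5 counts (95% exact binomial interval 7.96% to 9.11%, counting error only). Over all 54 rows they held 61.1%. By library that share was 85.4%, 78.1% and 75.5% in the attached libraries and 65.9% and 45.1% in the detached ones, so the detached libraries were the lowest. That order depends on the joint rows: counted with the pseudogenes, the shares were 87.4%, 79.3% and 77.4% against 81.97% and 53.96%, and the first detached library lay within the attached range. Functional U5 names made 13.4%, 21.2% and 23.6% of the rows' counts in the attached libraries, and 33.2% and 53.99% in the detached ones. Joint names were counted here with the functional copies. Without the joint row RNU5E-1_RNU5E-10P the functional U5 shares were 12.6%, 20.7% and 22.6% against 18.03% and 46.04%, and the groups overlapped.

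**Figure D3:**
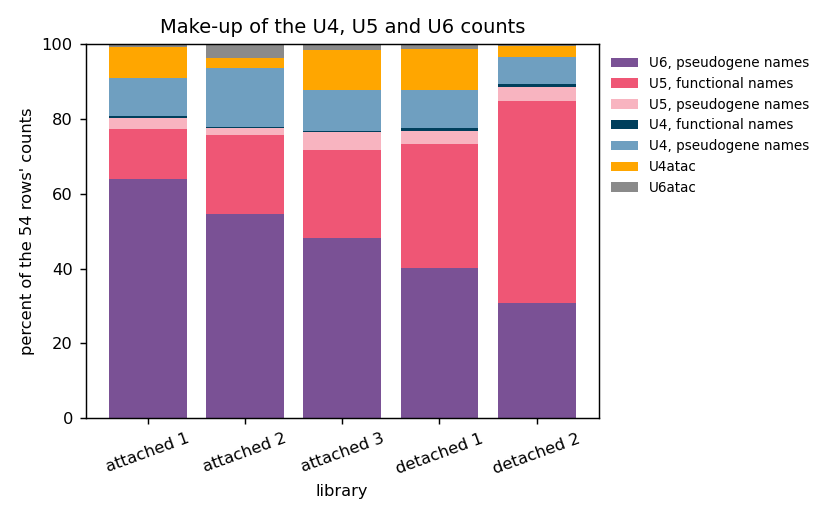
Share of the 54 rows' counts held by each family and kind of name, 1 bar per library. Functional U5 names grow from 13.4% in the first attached library to 53.99% in the second detached one, and U6 pseudogene names go from 63.9% to 30.7%.

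The U5 variants did not move as a block. RNU5A-1 and RNU5B-1, the main U5 copies, were the most counted rows, with 3322 and 3408 counts. RNU5A-1 stood at 12.1, 28.8 and 22.6 CPM in the attached libraries and at 32.8 and 198 in the detached ones. Both detached values exceeded the attached ones, the first of them by a factor of 1.14 over the highest attached value. RNU5B-1 stood at 13.7, 28.8 and 25.7 in the attached libraries and at 9.74 and 236 in the detached ones. It was thus lowest in one detached library and highest in the other, a spread of 24.2-fold within the group. In edgeR's quasi-likelihood fit the log2 fold changes, detached over attached, came to 2.02 (SE 0.82) for RNU5A-1 and 1.95 (SE 1.05) for RNU5B-1, with Benjamini-Hochberg adjusted p of 0.517 and 0.658 over all tested rows. Without the second detached library they were 0.63 and -1.22, so the sign of RNU5B-1 turned. Per 100 bases of transcript, the mean levels of these copies were 18.3 and 19.6 CPM in attached cells, a difference well inside their spread between libraries.

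The joint row of RNU5E-1 and RNU5E-10P differed from them. It stood at 2.02, 1.68 and 2.39 CPM in the attached libraries and at 37.8 and 77.6 in the detached ones. All attached libraries were low and close together, and the lower detached library was 15.8 times the highest attached one. The fitted log2 fold change was 4.51 (SE 0.68), with an adjusted p of 0.0568 by edgeR, the smallest p among the 1159 rows tested. It was higher in 2 of 2 detached libraries. Without the second detached library the log2 fold change was 4.22 with an adjusted p of 0.341, and without attached library 2 it was 4.45 with an adjusted p of 0.0268, past the threshold of 0.05. The RNU5E-1 and RNU5E-10P transcripts were 79.0% identical and shared 4 words, so they are not the same sequence, and which locus the counts came from cannot be told from the row. RNU5E-1 also lies in an exon of another annotated gene in sense, and all 103 of its words stand in genes of other types. Fragments of such a gene and of RNU5E-1 cannot be told apart here. RNU5E-1 is a variant copy of U5.

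The remaining U5 rows were smaller. RNU5F-1, another variant copy, stood at 2.43, 4.14 and 2.20 CPM in the attached libraries and at 1.69 and 14.2 in the detached ones. RNU5D-1 stood at 0.566, 1.68 and 0.955 against 0.562 and 1.01. Neither separated the groups: RNU5F-1 was below the attached range in one detached library and above it in the other, and RNU5D-1 lay within or at the edge of the attached range.

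Among U5 pseudogene names, RNU5E-6P led with 2.18, 1.45 and 2.20 CPM when attached, against 4.87 and 20.4 when detached. The groups did not overlap, and the log2 fold change was 2.31 (SE 0.71; adjusted p = 0.369 by edgeR), or 1.32 without the second detached library. RNU5E-6P lies in an exon of another annotated gene in sense, and all 98 of its words stand in genes of other types. RNU5E-4P stood at 0.566, 0 and 0.955 against 1.19 and 4.15, again without overlap, with an edgeR log2 fold change of 2.02 (adjusted p = 0.635), or 1.24 without that library. RNU5A-8P and RNU5F-4P overlapped between the groups, with log2 fold changes of 0.28 and 0.47.

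**Figure D4:**
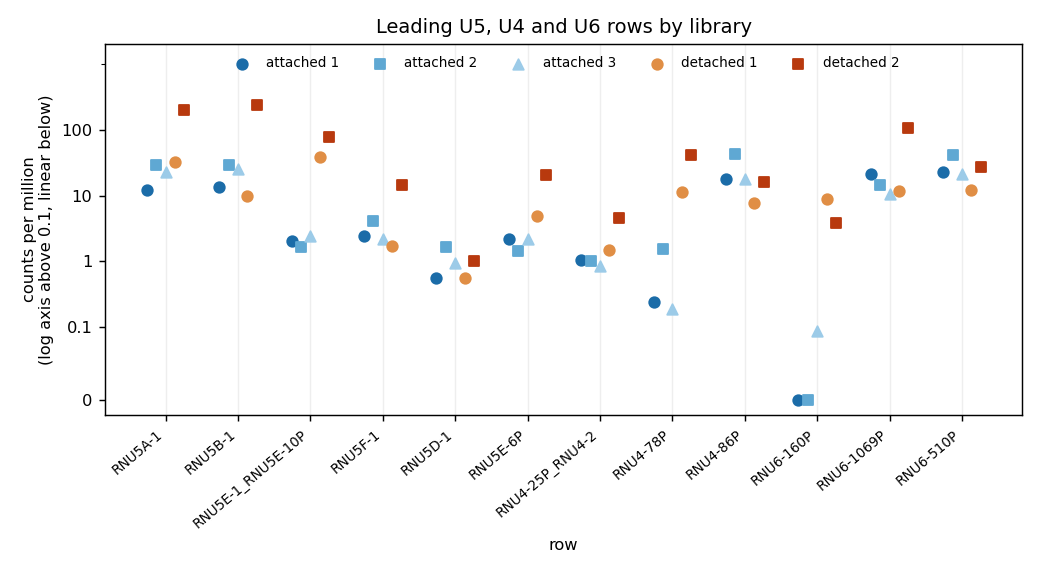
CPM of 12 leading rows in each of the 5 libraries (log axis above 0.1, linear below). Attached and detached libraries are far apart for RNU5E-1_RNU5E-10P, RNU4-78P and RNU6-160P, while RNU5B-1 and RNU6-1069P are high in the second detached library only.

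U4 was counted almost wholly under pseudogene names. RNU4-25P_RNU4-2, the row that includes the main U4 copy, had 13, 9 and 9 counts in the attached libraries and 24 and 50 in the detached ones. These were 1.05, 1.01 and 0.859 CPM against 1.499 and 4.61, without overlap, and the log2 fold change was 1.27 (SE 0.69; adjusted p = 0.658 by edgeR), or 0.61 without the second detached library. Its names stand for sequences that were 67.7% identical. RNU4-1_RNU4-10P had 1, 3 and 1 counts against 5 and 17, too few to be tested.

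The U4 pseudogene rows RNU4-86P and RNU4-78P went opposite ways. RNU4-78P had 3, 14 and 2 counts in the attached libraries and 184 and 447 in the detached ones, or 0.243, 1.56 and 0.191 CPM against 11.5 and 41.2. The lower detached library was 7.34 times the highest attached one. Its log2 fold change was 4.89 (SE 1.08), with an edgeR adjusted p of 0.120. That fell to 0.0268 without attached library 2, which held the 14 counts and where the log2 fold change was then 6.53, and it rose to 0.784 without the second detached library, at 4.08.

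RNU4-86P, the most counted U4 row, stood at 18.0, 43.4 and 17.6 CPM in the attached libraries and at 7.62 and 16.03 in the detached ones. Both detached libraries lay below all attached ones, and the log2 fold change was -1.52 (SE 0.78; adjusted p = 0.648 by edgeR). Its log2 fold change without attached library 2 was -0.85. The transcript is only 64.2% identical to RNU4-2, has a run of 18 adenines, and 81 of its 202 words occur in over 10 other genes.

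U6 reads were counted under pseudogene names alone in the chosen rows. Rows that join a functional U6 name held 12 counts (RNU6-1009P_RNU6-1), 3 counts (RNU6-21P_RNU6-2) and 0 counts for RNU6-7 and RNU6-8, and a further row with RNU6-9 in its name held 18. The row of RNU6-1 had 1, 1 and 1 counts in the attached libraries and 6 and 3 in the detached ones, where a library with 0 counts would allow up to 3. No level of functional U6 can be read from these tables, so the U6 values describe pseudogene names.

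RNU6-160P had 0, 0 and 1 counts in the attached libraries and 144 and 41 in the detached ones. The attached libraries were at their floor, and the detached ones stood at 8.995 and 3.78 CPM, the first of them being the higher. The ratio of the pooled levels was 219, with a 95% counting interval of 38.8 to 8694. The fitted log2 fold change of 7.16 (SE 1.17) depends on the prior count, and its edgeR adjusted p was 0.0568, rank 5 of all tested rows. Without attached library 2 the adjusted p was 0.0623 and without the second detached library 0.326. RNU6-160P keeps the ACAGAGA box.

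RNU6-1069P was the most counted U6 row, at 20.9, 14.5 and 10.6 CPM in the attached libraries and at 11.6 and 104 in the detached ones. The first detached library lay inside the attached range and the second was 9.02 times higher, so that the log2 fold change of 1.45 (edgeR adjusted p = 0.709) turned to -0.43 without it. RNU6-421P had the same shape, with 11.5, 6.37 and 2.48 against 7.93 and 36.5. RNU6-510P, at 22.4, 40.7 and 21.3 against 12.3 and 26.6, RNU6-628P, at 26.1, 14.98 and 22.8 against 11.4 and 27.3, and RNU6-1122P, at 6.39, 39.3 and 10.8 against 9.62 and 15.4, overlapped between the groups. Their log2 fold changes were -0.89, -0.47 and -0.94.

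RNU6-1195P stood at 0.243, 0 and 0.859 CPM in the attached libraries and at 1.62 and 4.24 in the detached ones, and its log2 fold change was 2.66 (SE 1.02; adjusted p = 0.479 by edgeR). RNU6-703P was the clearest row in the other direction, at 6.39, 7.49 and 5.63 in the attached libraries and 1.19 and 3.69 in the detached ones. The attached libraries were alike and all higher, and the log2 fold change was -1.79 (SE 0.72; adjusted p = 0.509 by edgeR). RNU6-1095P was high in attached library 2 alone, at 0.890, 9.05 and 1.15 against 1.19 and 2.12, and its log2 fold change of -1.53 turned to 0.47 without that library. Single libraries carried other U6 rows too: RNU6-1261P had 197 of its 206 counts in attached library 1, and RNU6-1017P had 65 of its 67 in attached library 3. Neither was among the tested rows.

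In the minor spliceosome's families, RNU4ATAC_RNU4ATAC18P had 20, 7 and 11 counts in the attached libraries and 6 and 26 in the detached ones, and the groups overlapped (log2 fold change -0.17; SE 0.82; adjusted p = 0.990 by edgeR). With library totals in place of TMM scaling that value was 0.23. RNU4ATAC10P stood at 5.09, 2.35 and 10.7 CPM against 11.6 and 20.1. The detached libraries were the higher, the first of them by a factor of 1.09, and the adjusted p was 0.732. RNU4ATAC14P was at 9.38, 4.92 and 5.44 against 2.998 and 6.82, with overlap.

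RNU4ATAC8P split both groups, with 35, 0 and 75 counts in the attached libraries and 205 and 2 in the detached ones. Without the first detached library its log2 fold change went from 1.04 to -4.50. RNU6ATAC28P had 3, 96 and 31 counts against 14 and 8 (log2 fold change -2.77; SE 1.38; adjusted p = 0.635 by edgeR), and its highest value lay in attached library 2, without which the log2 fold change was -1.04. The row that joins RNU6ATAC itself had 10 counts in all, below the threshold.

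Across the set, 38 of the 54 rows passed the filter on low counts and were tested with all other rows, so the figures that follow leave out 16 rows. By edgeR at an adjusted p under 0.05, 0 of the 38 were higher and 0 were lower in detached cells, and the shares over all 1159 rows were 0.00% higher and 0.00% lower. At an unadjusted p under 0.05, 6 of the 38 were higher and 1 was lower, and over all rows 6.64% were higher and 2.16% lower. The groups did not overlap in 13 rows that were higher and 2 that were lower, and over all rows this held for 20.9% and 7.25%. A positive log2 fold change was found in 27 of the 38, against 51.8% of all rows, and the medians were 0.82 for the 38 and 0.04 for all rows. The summed count that chose the rows includes the detached libraries, and some rows, named below, passed it only through them. That choice adds to the higher rows among the 38, so these figures cannot show an excess over all rows.

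Single libraries moved these counts. Without attached library 2, 2 of 37 tested rows were called higher (RNU5E-1_RNU5E-10P and RNU4-78P) and 0 lower, where 0.892% of 1121 rows were called higher and 0.00% lower. Without the second detached library 0 of 45 rows were called in either direction by edgeR, with 3 higher and 0 lower at an unadjusted p under 0.05, and 21 of 45 had a positive log2 fold change with a median of -0.36, where the median of all rows was -0.16. Over all 1344 rows then tested, 0.00% were called in either direction, 3.05% were higher and 0.0744% lower at an unadjusted p under 0.05, and 44.2% had a positive log2 fold change. DESeq2 on the same counts called 3 of the 38 rows higher, namely RNU5E-1_RNU5E-10P (adjusted p 3.1e-07), RNU4-78P (adjusted p 9.0e-04) and RNU6-160P (adjusted p 2.7e-04), and 0 lower, against 2.16% higher and 0.431% lower over all 1159 rows. RNU6-160P, with 1 attached count, RNU4-78P, with 19, RNU6-1195P, with 12, and RNU5E-4P, with 17, reached the summed count of 20 only through the detached libraries. They are part of 8 rows among the 54 with under 20 counts when attached and 20 or more in the detached libraries alone. The choice of rows thus favoured such a difference for them. RNU6-160P, RNU4-78P, RNU6-1195P and RNU5E-4P are all among the 13 rows higher without overlap and the 27 with a positive log2 fold change. All but RNU5E-4P are also among the 6 higher at an unadjusted p under 0.05 by edgeR. The figures for the 38 rows were not recomputed without them. In the attached libraries alone, 39 of the 54 rows reached 20 counts.

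**Figure D5:**
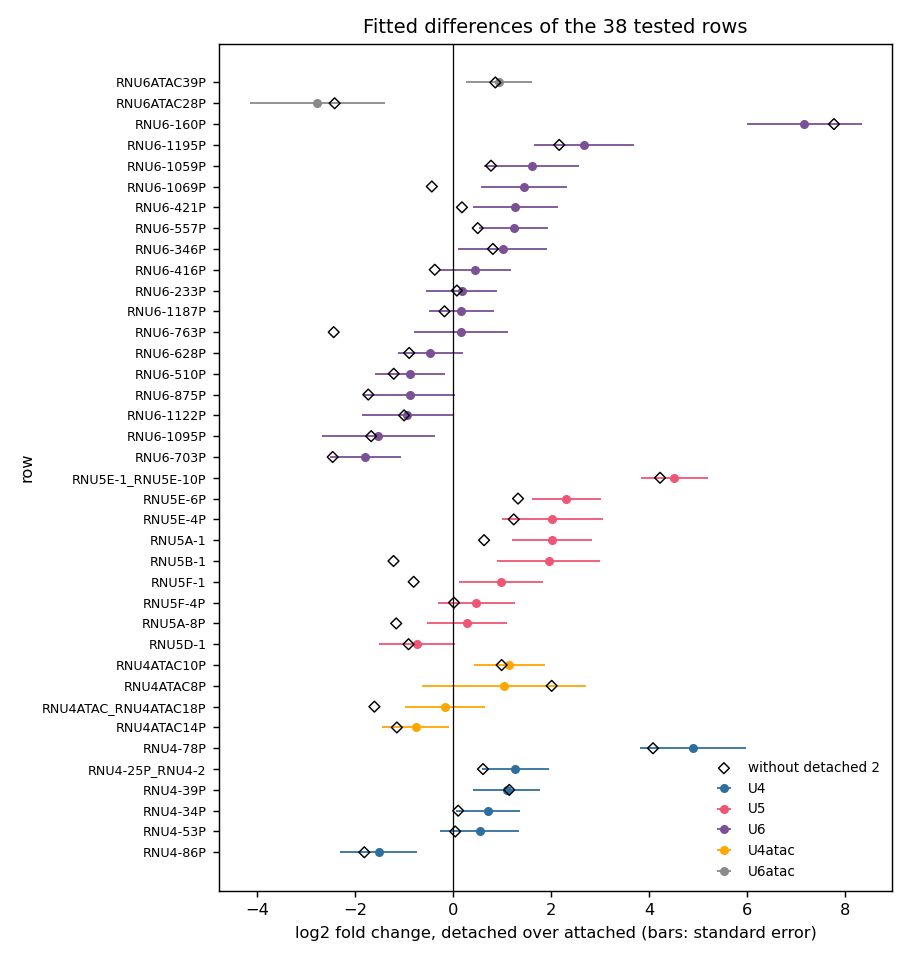
Log2 fold change, detached over attached, of the 38 tested rows by family (points, with standard errors as bars) and the value without the second detached library (open diamonds). RNU6-160P, RNU4-78P and RNU5E-1_RNU5E-10P lie above 4 with and without that library, whereas RNU5B-1, RNU5F-1, RNU5A-8P and RNU6-1069P go from above 0 to below it.

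The authors' deposited table, which holds fold changes without the joint rows, lists 50 of the 54 rows. In the authors' deposited table RNU6-160P has a log2 fold change of 5.27 with an adjusted p of 1.7e-04, and RNU4-78P one of 4.08 with an adjusted p of 0.00125. These were the 2 of 50 rows under 0.05 in that authors' deposited table, both higher in detached cells, where 17 of its 2991 rows with an adjusted p were higher and 1 was lower. The authors' deposited table holds 0 of the 2625 joint rows of the count tables, so RNU5E-1_RNU5E-10P has no value there.

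Other snRNAs and their guides give the setting. Detached over attached, the ratio of mean summed levels was 1.73 for U1, 1.69 for U2, 3.27 for U11 and 2.04 for U12, against 5.71 for U5. The ratio was 4.71 for 5S rRNA, 5.66 for Cajal body RNAs, 1.37 for C/D box snoRNAs and 0.836 for H/ACA snoRNAs, so that U5 was not alone in a high summed ratio. The Cajal body sum covers 3 rows with 384 counts, of which SCARNA10 held 196 and SCARNA12 178. Of 11 tested 5S rRNA rows, 6 had a positive log2 fold change, with a median of 0.06. The second detached library exceeded the first by 6.19-fold for U5, 3.01-fold for U6 and 2.89-fold for U4, against 1.54-fold for U1, 1.82-fold for U2, 3.58-fold for U11, 2.09-fold for 5S rRNA and 1.72-fold for C/D box snoRNAs. The U1 values depend on 1 row: RNU1-57P held 485 of the 945 U1 counts in the first detached library. It held 2 in the second and 0 in each attached library. It thus raised the first detached level of U1, which raises the ratio of 1.73 and lowers that of 1.54. U1 was not summed without this row, so its 1.54-fold gives no firm contrast with U4 and U6. The difference between classes was not tested. Of 16 tested rows of U1, U2, U11 and U12, 0 were called by edgeR, with 1 higher (RNU1-65P, log2 fold change 3.57) and 1 lower (RNU1-42P, -2.94) at an unadjusted p under 0.05.

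Among small RNAs that guide the chemical modification of U5 and U6, 6 rows were tested and 0 were called by edgeR, with 2 higher and 0 lower at an unadjusted p under 0.05. SCARNA12, which guides modification of U5, had 16, 3 and 4 counts in the attached libraries and 92 and 63 in the detached ones, a log2 fold change of 2.82 (SE 0.81; adjusted p = 0.302 by edgeR). SCARNA10, another U5 guide, had 26, 2 and 16 counts against 76 and 76, a log2 fold change of 1.91. The detached libraries were the higher for both guides, without overlap. SNORD82_SNORD8, a joint row with the U6 guide SNORD8, had 93, 37 and 40 counts against 327 and 272, a log2 fold change of 1.87. SNORD101_SNORD10, with the U6 guide SNORD10, went the other way at -0.94, and its groups overlapped. SNORD77_SNORD77_SNORD7 (0.71) and SNORD94_SNORD9 (0.05) overlapped between the groups too. These SNORD rows are 4 joint rows, whose counts may belong to the other name. SNORD67 held 3 counts in all and was not tested, and no row of the counts was named SCARNA5, SCARNA6, SCARNA13 or SCARNA17.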

How the data were processed

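Small RNA counts per named row (whole-number counts, 1 table per library) were deposited by the authors and used as they stand. The authors' deposited table of log2 fold changes and p-values was only quoted; its 5 per-library columns and 3 mean columns were not used. Per the submitters' processing notes, hg38 and DESeq2 were used, with no version or role. The sources used here name no aligner or counter, and how a read with several matching copies was handled is not given in them. The summary rows in the count tables held 0 counts.

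Levels (CPM) are counts in every 1000000 named counts of the library. Tests used edgeR 4.0.16 (R 4.3.3; glmQLFit, glmQLFTest, TMM, filterByExpr with a minimum count of 10 and total of 15) on all rows, Benjamini-Hochberg over 1159 rows and a threshold of 0.05, with no covariate. DESeq2 1.42.0, limma-voom (limma 3.58.1), other scalings, filters and left-out libraries were alternatives. The edgeR fit was tested on simulated data. Sequences came from GENCODE 29, aligned with Biopython 1.88; some are not reported here.

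Rows are named if they hold a functional copy's name, are among the 5 most counted pseudogene rows of U4, U5 or U6, or have 1 of the 5 smallest p in a direction, or lie next to the threshold of 20. Rows most like functional U6 are not given, because its counts are few. The 4 rows that start RNU6 and hold a functional U6 name sum to 15 counts. The further row with RNU6-9 in its name holds 18. The members and lists were chosen with earlier results of these data known. The replicates differed by more than sampling noise.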

Additional observations from a re-analysis of the deposited data

How the results depend on the processing

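The number of U4, U5 and U6 rows called higher in detached cells was 0 in the edgeR fit and with limma-voom, library totals without TMM, a minimum count of 50, or a summed count of 10 or 50. It was 3 with DESeq2, 2 with the human miRNA total as library size, 3 with no filter on low counts, 0 to 2 with a library left out (2 without attached library 2) and 4 with DESeq2 without attached library 2, an alternative chosen after seeing the data. The number called lower was 0 except for 1 with no filter, RNU6-1261P, most of whose counts sit in 1 attached library. Over all rows, those called higher were 25 with DESeq2, 6 with the human miRNA total, 31 with no filter, 0 to 10 with a library left out and 49 with DESeq2 without attached library 2; those called lower were 5, 0, 18, 0 and 10. Libraries of equal replicate number had correlations of deviations from the group means of -0.15 and -0.10. With 2 detached libraries these deviations mirror each other, and the values against the other detached library were 0.15 and 0.10. These correlations therefore cannot show whether replicate numbers pair the libraries. The fit with a replicate block, which uses 2 pairs, called 1 of these rows higher (RNU6-160P) and 10 over all rows. Library totals without TMM moved the median of all rows from 0.04 to 0.30, and positive log2 fold changes from 600 to 729 of 1159 rows (27 to 28 of these 38).

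Among the named rows, log2 fold changes whose sign turned lay, with a library left out, between -1.22 and 2.87 for RNU5B-1, -0.43 and 2.24 for RNU6-1069P, -1.39 and 0.34 for RNU6-1122P, -4.50 and 2.08 for RNU4ATAC8P, -1.16 and 0.98 for RNU5A-8P, -0.80 and 1.76 for RNU5F-1, -2.10 and 0.47 for RNU6-1095P, and -1.61 and 0.54 for RNU4ATAC_RNU4ATAC18P. Without the second detached library the sign turned for 7 of the 38 tested rows, RNU6-763P (-2.44), RNU6-416P (-0.37) and RNU6-1187P (-0.18) among them. Other reversals of named rows were RNU5A-8P with limma-voom (-0.0082), RNU4ATAC_RNU4ATAC18P with library totals (0.23), and, with DESeq2 without attached library 2, RNU6-1122P (0.24), RNU6-1095P (0.37) and RNU5A-8P (-0.035). The cause was not tested. Pseudogene shares moved to 100% for U4 and U4atac and to 24.7% for U5 when joint names were counted with the pseudogenes. Over every row with any count whose name starts RNU4, RNU5 or RNU6, they moved to 99.9% for U6 and 97.4% for U6atac. The family log2 ratios with a library left out ran from -0.31 to 1.22 for U4, 0.67 to 3.30 for U5, -0.50 to 1.09 for U6, 0.41 to 1.09 for U4atac and -1.11 to 0.30 for U6atac. The spread between the detached libraries is set by the same libraries, so it cannot show that these ratios are stable. With 2 detached libraries and 10585 or fewer counts in these rows per library, counts of 3 or fewer in a library are at the floor.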
